A study of Mus musculus with 12 samples.

Results

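The genes of the G1 phase engine were followed by symbol through 4 groups of mouse bone marrow progenitors. They were the D cyclins Ccnd1, Ccnd2 and Ccnd3, the cyclin-dependent kinases Cdk4 and Cdk6, the Cip/Kip inhibitors Cdkn1a (p21), Cdkn1b (p27) and Cdkn1c (p57), and the Ink4 inhibitors Cdkn2c (p18) and Cdkn2d (p19). All 10 were found among 23383 genes joined over 12 RNA-seq libraries. The tested mice were homozygous for loss of an enhancer 42 kb from Cebpa (Cebpa +42kb enhancer -/-), and the others were wild type, all of strain C57BL/6. From each genotype 3 libraries were made of common myeloid progenitors (CMP) and 3 of the LSK fraction, which is lineage-negative, Sca-1-positive and Kit-positive and holds the stem cells. The groups were enhancer-null CMP, wild-type CMP, enhancer-null LSK and wild-type LSK, and libraries are named here by their title's number (1, 2 and 7 for enhancer-null, 1, 6 and 8 for wild type). The design text calls the enhancer-null animals Cebpa null. The age of the mice and whether each number was 1 animal are not given in the labels, so p-values measure the spread between these libraries.

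In G1, D cyclins bind Cdk4 or Cdk6, and the active pairs phosphorylate the retinoblastoma protein and its relatives, which frees E2F factors to switch on cyclin E and the genes of DNA replication. Ink4 proteins bind Cdk4 and Cdk6 and keep the D cyclins off them. Cip/Kip proteins inhibit cyclin E and cyclin A complexes of Cdk2 and also bind cyclin D complexes. In mouse bone marrow, p57 is known for holding stem cells in quiescence, p18 for restraining their self-renewal, and Cdk6 for their exit from quiescence. The product of Cebpa, C/EBPα, commits progenitors to the granulocyte and monocyte lineages and is known to arrest the cell cycle through contacts with E2F, p21, Cdk2 and Cdk4.

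Counts assigned to genes ran from 6170491 to 49149674 per library, and each level below is in CPM, which divides a count by the library's size and its TMM factor over the 12 libraries. Cebpa was counted 0, 3 and 0 times in enhancer-null CMP, against 544, 270 and 463 times in wild-type CMP. It was counted 1, 0 and 15 times in enhancer-null LSK, against 226, 118 and 39 times in wild-type LSK. Ly6a, which encodes Sca-1, lay between 0.186 and 12.9 CPM in enhancer-null CMP, 3.30 and 5.70 CPM in wild-type CMP, 142 and 196 CPM in enhancer-null LSK, and 134 and 175 CPM in wild-type LSK. Of the genes that averaged over 10 CPM, 3.58% lacked any count in enhancer-null CMP 1, 1.82% in wild-type LSK 6 and 1.56% in enhancer-null CMP 7. In wild-type CMP at most 0.871% lacked one. Several values in LSK are also given without wild-type LSK 6, but not all that change with it. By Xist and Y-linked genes, 2 of 3 enhancer-null libraries and 1 of 3 wild-type libraries of each cell type were male.

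By genotype, no member passed the quasi-likelihood test of edgeR at a Benjamini-Hochberg adjusted p under 0.05 in either cell type. In CMP 0 of 10 were called, where 0.589% of the 11722 genes tested were. In LSK 0 of 10 were called, where 0.103% of 11619 were. At an unadjusted p under 0.05 there were 2 of 10 in CMP and 2 of 10 in LSK, against 12.6% and 7.91% of all genes tested. DESeq2, which called 5.57% of genes in CMP and 2.37% in LSK, called 1 member in each, Cdkn1a in CMP and Cdk6 in LSK. The libraries of the genotypes did not overlap for 4 of 10 members in CMP (23.7% of all genes tested) and for 5 of 10 in LSK (19.1% of all genes tested). Cdk6 and Cdkn1a were among them in both cell types, with every enhancer-null library above every wild-type library. In CMP the others were Ccnd3 and Cdk4, and in LSK they were Ccnd1, Cdkn1b and Cdkn1c, with every enhancer-null library below every wild-type one. Without wild-type LSK 6, a choice made after seeing the data, 8 of 10 members did not overlap in LSK (30.8% of all genes tested), with Ccnd3 and Cdkn2c added as lower and Cdk4 as higher.

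**Figure D1:**
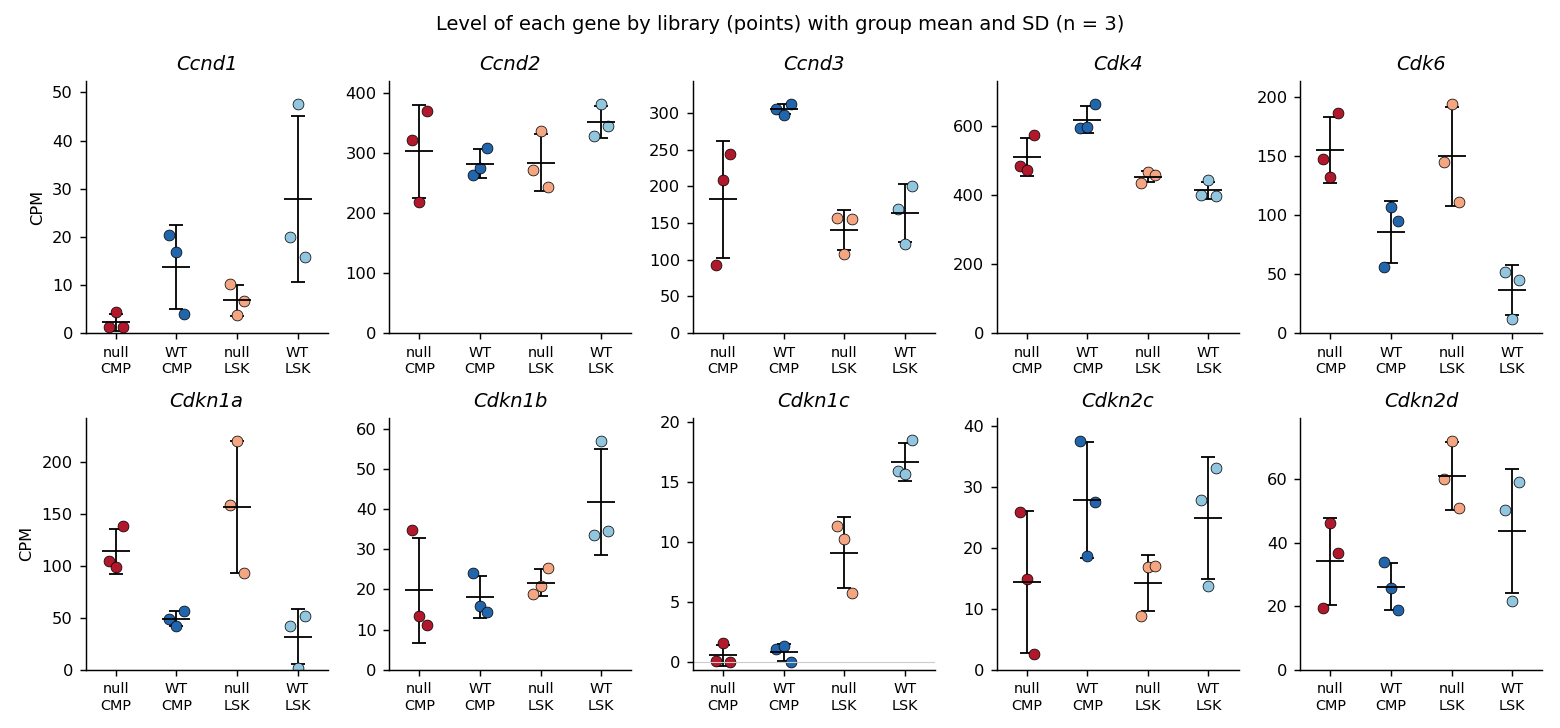
Level of each of the 10 genes in CPM (linear axis per panel) in the 3 libraries of each group, as points, with the group mean and SD as lines. Cdk6 and Cdkn1a stood higher in every enhancer-null library than in any wild-type library of the same cell type, and Cdkn1c was near 0 in CMP of both genotypes.

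The D cyclins are the regulatory partners of the G1 kinases, made in response to growth signals. Ccnd3 (ENSMUSG00000034165.16, mm10 chromosome 17, 47505051 to 47599691, plus strand) is the D cyclin best known in blood for lymphoid and erythroid precursors. It measured 92.8, 209 and 245 CPM in enhancer-null CMP, against 306, 298 and 312 CPM in wild-type CMP. The wild-type libraries lay within a narrow band that no enhancer-null library reached, and enhancer-null CMP 1 was the lowest. The log2 fold change was −0.75 with an SE of 0.33 (edgeR quasi-likelihood test, Benjamini-Hochberg adjusted p = 0.421). In LSK, Ccnd3 measured 158, 108 and 156 CPM in enhancer-null libraries and at 169, 121 and 200.1 CPM in wild-type libraries. The groups overlapped only through wild-type LSK 6, and without it the ratio of the enhancer-null to the wild-type mean was 0.762.

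Ccnd2 (ENSMUSG00000000184.12, chromosome 6, 127125162 to 127152193, minus strand), the cyclin induced by cytokine signals in many blood cells, varied least of the members. The range of its group means on the log2 scale was 0.32, against 3.63 for Cdkn1c. It measured 321, 219 and 370.04 CPM in enhancer-null CMP and at 263, 276 and 309 CPM in wild-type CMP. It measured 271, 336 and 244 CPM in enhancer-null LSK and at 329, 382 and 346 CPM in wild-type LSK. The genotypes overlapped in both cell types.

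Ccnd1 (ENSMUSG00000070348.5, chromosome 7, 144929931 to 144939925, minus strand) was the scarcest D cyclin. It measured 1.16, 4.34 and 1.24 CPM in enhancer-null CMP, against 20.4, 16.9 and 3.96 CPM in wild-type CMP. The ranges met only through wild-type CMP 8, which lay just below the highest enhancer-null library. In LSK it measured 10.2, 3.68 and 6.57 CPM in enhancer-null libraries, against 15.9 to 47.6 CPM in wild-type libraries, with no overlap. The log2 fold changes were −2.61 in CMP (SE 1.2, adjusted p = 0.442) and −1.99 in LSK (SE 0.74, adjusted p = 0.573), both by the quasi-likelihood test of edgeR, Benjamini-Hochberg adjusted. Without wild-type LSK 6 the log2 fold change in LSK was −1.36 (edgeR quasi-likelihood Benjamini-Hochberg adjusted p = 0.647, and 0.171 to 1.0 over 12 alternatives). Its counts were 10, 88 and 20 in enhancer-null CMP, against 649, 302 and 60 in wild-type CMP.

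The promoters of Cdk4, Cdk6 and Cdkn1a are shown as examples because their sequence elements differ. Each of these genes separated the genotypes in CMP without overlap, as did Ccnd3, whose windows are not shown. RefSeq windows (GRCm38.p6, 250 bases before to 50 after each start) were in the table for 7 of the 10 members, 10 windows in all. The 4 shown, with both starts of Cdkn1a, run 5′ to 3′ on the plus strand, with matched letters in capitals. Capitals mark the E-box CACGTG, the GC box GGGCGG, the TATA box TATAAA, and a pair of p53 half-sites, ACATGTNNNNACATGT, each on either strand.
Cdk4, chr10:127063285-127063584: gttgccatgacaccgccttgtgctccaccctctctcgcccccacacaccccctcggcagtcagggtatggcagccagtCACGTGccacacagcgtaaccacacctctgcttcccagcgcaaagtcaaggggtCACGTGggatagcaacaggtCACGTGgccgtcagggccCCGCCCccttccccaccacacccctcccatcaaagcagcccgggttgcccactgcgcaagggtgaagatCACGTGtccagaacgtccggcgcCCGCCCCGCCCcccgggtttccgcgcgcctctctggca
Cdk6, chr5:3343643-3343942: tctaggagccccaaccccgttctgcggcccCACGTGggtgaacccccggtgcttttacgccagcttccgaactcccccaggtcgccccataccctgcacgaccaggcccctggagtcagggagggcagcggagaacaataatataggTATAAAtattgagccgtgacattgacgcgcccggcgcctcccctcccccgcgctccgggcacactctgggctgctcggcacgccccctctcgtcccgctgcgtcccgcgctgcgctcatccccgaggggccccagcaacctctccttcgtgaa
Cdkn1a, start 1, chr17:29090729-29091028: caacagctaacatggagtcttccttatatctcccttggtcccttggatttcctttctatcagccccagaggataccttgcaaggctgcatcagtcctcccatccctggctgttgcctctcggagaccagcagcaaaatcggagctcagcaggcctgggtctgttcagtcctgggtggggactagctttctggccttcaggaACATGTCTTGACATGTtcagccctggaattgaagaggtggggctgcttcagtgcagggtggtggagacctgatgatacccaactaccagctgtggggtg
Cdkn1a, start 2, chr17:29093519-29093818: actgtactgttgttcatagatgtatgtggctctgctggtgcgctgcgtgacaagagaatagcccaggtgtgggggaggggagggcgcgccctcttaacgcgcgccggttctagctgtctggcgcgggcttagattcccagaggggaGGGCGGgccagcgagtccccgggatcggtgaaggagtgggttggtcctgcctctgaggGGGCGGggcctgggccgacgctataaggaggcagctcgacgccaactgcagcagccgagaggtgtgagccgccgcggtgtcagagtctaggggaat

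The Cdk4 window held 4 E-boxes, the letters bound by Myc and related factors. An E-box was in 7.15% of 32851 promoter windows, and 8 of these windows held at least 4. The Cdk4 window also held 3 GC boxes, of which the last 2 share 1 base, and a GC box was in 35.7% of windows. The Cdk6 window held 1 E-box and 1 match to the TATA box letters, which began 103 bases before the start. A TATA box was in 13.6% of windows. The first Cdkn1a window held the p53 half-site pair, which began 49 bases before the start and occurred in 4 of the 32851 windows. This pair was searched for after the window had been read. The second Cdkn1a window held 2 GC boxes. None of the 4 windows held the C/EBP letters TTGCNNAA (10.8% of windows) or an E2F match (TTTGGCGC, TTTGCCGC, TTTCGCGC or TTTCCCGC, 2.27% of windows). Among the other members, 1 of the windows of Cdkn2c held TTGCTGAA. These are matches of letters, and no binding was measured.

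Cdk4 and Cdk6 are the catalytic partners of the D cyclins. Cdk4 (ENSMUSG00000006728.12, chromosome 10, 127063534 to 127067920, plus strand) measured 485, 473 and 574 CPM in enhancer-null CMP, against 593, 597 and 663 CPM in wild-type CMP. The groups were separated by 18.99 CPM, and the log2 fold change was −0.28 (SE 0.14, edgeR quasi-likelihood Benjamini-Hochberg adjusted p = 0.471). In LSK it measured 435, 466 and 457 CPM in enhancer-null libraries and at 399, 442 and 397 CPM in wild-type libraries. These overlapped only through wild-type LSK 6, and without it the ratio of the enhancer-null to the wild-type mean was 1.14.

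Cdk6 (ENSMUSG00000040274.11, chromosome 5, 3341485 to 3531008, plus strand) lay the other way by genotype. It measured 147, 132 and 186 CPM in enhancer-null CMP, against 56.1, 107 and 94.7 CPM in wild-type CMP. In LSK it measured 144.7, 194 and 111 CPM in enhancer-null libraries, against 51.5, 12.1 and 45.2 CPM in wild-type libraries. Every enhancer-null library of either cell type was above all 6 wild-type libraries, of which wild-type LSK 6 was the lowest. The log2 fold change was 0.85 in CMP (SE 0.30, 95% interval 0.16 to 1.55, adjusted p = 0.292) and 2.07 in LSK (SE 0.54, 95% interval 0.82 to 3.32, adjusted p = 0.331), by the quasi-likelihood test of edgeR, Benjamini-Hochberg adjusted. DESeq2 gave 2.08 and an adjusted p of 0.00523 in LSK, and adjusted p over 12 alternatives there ran from 0.00523 to 0.888. The ratio of the enhancer-null to the wild-type mean in LSK was 4.13, and 3.10 without wild-type LSK 6.

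Cdkn1a (ENSMUSG00000023067.14, chromosome 17, 29090976 to 29100727, plus strand) encodes p21, an inhibitor of Cdk2 that p53 induces after DNA damage and that growth arrest signals also raise. It measured 104, 98.5 and 139 CPM in enhancer-null CMP, against 48.8, 42.2 and 56.8 CPM in wild-type CMP. In LSK it measured 159, 219.7 and 92.7 CPM in enhancer-null libraries, against 42.5, 1.40 and 51.3 CPM in wild-type libraries. All 6 enhancer-null libraries were above all 6 wild-type libraries. The value of wild-type LSK 6 came from 20 counts, the fewest of any library for this gene. The log2 fold change was 1.21 in CMP (SE 0.27, 95% interval 0.58 to 1.83, adjusted p = 0.113) and 2.33 in LSK (SE 1.01, 95% interval −0.03 to 4.69, adjusted p = 0.629), by the quasi-likelihood test of edgeR, Benjamini-Hochberg adjusted. DESeq2 gave 1.22 with an adjusted p of 0.00389 in CMP, where adjusted p over 12 alternatives ran from 0.00389 to 0.563. The ratio of the enhancer-null to the wild-type mean in LSK was 4.95, and 3.35 without wild-type LSK 6.

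Markers of other cells moved with genotype beside Cdk6 and Cdkn1a. The summed level of 7 mast cell and basophil markers was 1312 to 1745 CPM in enhancer-null CMP, against 109 to 309 CPM in wild-type CMP, and 468 to 772 CPM in enhancer-null LSK, against 203 to 324 CPM in wild-type LSK. The sum was carried by Cpa3, a mast cell protease, at 1117 CPM on average in enhancer-null CMP, against 41.7 CPM in wild-type CMP, and by Gata2, also a stem cell factor, at 393 CPM, against 60.7 CPM. Of 6 tested genes in CMP 3 had negative fold changes, with Hdc at 1.08 CPM in enhancer-null CMP, against 17.7 CPM in wild-type CMP, and Prss34 alone of the 7 had no count in enhancer-null CMP. In LSK, Gata2 averaged 165 CPM in enhancer-null libraries, against 239 CPM in wild-type libraries. The sum of 8 granulocyte and monocyte progenitor markers was 2634 to 3481 CPM in enhancer-null CMP, against 5259.5 to 6489 CPM in wild-type CMP, and 1390.2 to 2696 CPM in enhancer-null LSK, against 579.8 to 775 CPM in wild-type LSK. In CMP 7 of the 8 genes had negative fold changes, and in LSK 4 of 8. The LSK sum was mostly Mpo, at 1751 CPM in enhancer-null LSK, against 362 CPM in wild-type LSK, while Elane was at 3.95 CPM, against 37.9 CPM. The sum of 11 stem cell and LSK markers was 945 to 1390.04 CPM in enhancer-null CMP, against 1610.5 to 1865 CPM in wild-type CMP, and 2590.1 to 2913 CPM in enhancer-null LSK, against 4153 to 4543 CPM in wild-type LSK. In CMP 7 of the 10 tested genes of that list had negative fold changes, and in LSK 9 of 11. Kit averaged 586 CPM in enhancer-null CMP, against 345 CPM in wild-type CMP. Ly6a averaged 177 CPM in enhancer-null LSK, against 152 CPM in wild-type LSK. No gene of the granulocyte and monocyte or stem cell lists was without a count in a whole group. The sum of 6 megakaryocyte markers was higher in every enhancer-null library than in any wild-type library of the cell type through Itga2b, at 151 CPM in enhancer-null CMP, against 25.9 CPM in wild-type CMP, while Pf4 was at 9.41 CPM, against 39.9 CPM. In LSK 4 of the 6 megakaryocyte genes had negative fold changes. The sum of 6 T and NK cell markers was higher in the same way, mostly through Nkg7 and Lck, the 2 of them that could be tested. Cd3e had no count in enhancer-null CMP, Cd3d none in enhancer-null LSK and Gzma none in wild-type LSK. The sum of 7 erythroid markers, with Hba-a1 at 0 in every group, overlapped in CMP (830 to 2487 CPM in enhancer-null, 1534 to 1739 CPM in wild type). In LSK that erythroid sum was 118 to 138 CPM in enhancer-null libraries, against 29.7 to 87.9 CPM in wild-type libraries. The sum of 8 late neutrophil markers was 3.84 to 27.4 CPM in enhancer-null CMP, against 2076, 248 and 26.4 CPM in wild-type CMP. These overlapped through wild-type CMP 8. In LSK that neutrophil sum was 7.14 to 26.7 CPM in enhancer-null libraries, against 125 to 1328 CPM in wild-type libraries. In bulk libraries, fewer cells of a type and less RNA per cell cannot be told apart, and the part of these populations in the values of the members was not tested.

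Cdkn1b (ENSMUSG00000003031.14, chromosome 6, 134920401 to 134925513, plus strand) encodes p27, an inhibitor that accumulates in resting cells. It measured 34.9, 13.4 and 11.2 CPM in enhancer-null CMP and at 24.1, 15.9 and 14.4 CPM in wild-type CMP, which overlapped. In LSK it measured 18.9, 20.8 and 25.3 CPM in enhancer-null libraries, against 33.6, 57.1 and 34.7 CPM in wild-type libraries, which did not. The log2 fold change in LSK was −0.91 (SE 0.40, edgeR quasi-likelihood Benjamini-Hochberg adjusted p = 0.639). The ratio of the enhancer-null to the wild-type mean in LSK was 0.519, and 0.635 without wild-type LSK 6.

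Cdkn1c (ENSMUSG00000037664.13, chromosome 7, 143458339 to 143461050, minus strand) encodes p57 from an imprinted gene. It was counted 1, 32 and 0 times in enhancer-null CMP and 36, 24 and 0 times in wild-type CMP, and 5 of these 6 libraries were below 1.5 CPM. In LSK it measured 11.3, 10.2 and 5.76 CPM in enhancer-null libraries, against 15.9, 15.6 and 18.5 CPM in wild-type libraries, with no overlap. The log2 fold change in LSK was −0.84 (SE 0.70, edgeR quasi-likelihood Benjamini-Hochberg adjusted p = 0.803). In CMP the 95% interval of the log2 fold change ran from −5.67 to 4.62.

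The Ink4 members overlapped between genotypes in both cell types. Cdkn2c (ENSMUSG00000028551.14, chromosome 4, 109660876 to 109667189, minus strand) measured 26.0, 14.8 and 2.60 CPM in enhancer-null CMP and at 37.6, 18.7 and 27.5 CPM in wild-type CMP. It measured 8.89, 16.8 and 17.1 CPM in enhancer-null LSK and at 27.9, 13.8 and 33.1 CPM in wild-type LSK. Its mean was lower in the enhancer-null libraries of both cell types, with overlap in each, which in LSK came only through wild-type LSK 6. Without that library the ratio of the enhancer-null to the wild-type mean in LSK was 0.468. Cdkn2d (ENSMUSG00000096472.2, chromosome 9, 21288410 to 21291407, minus strand) measured 19.4, 46.3 and 36.7 CPM in enhancer-null CMP and at 33.9, 25.9 and 18.9 CPM in wild-type CMP. It measured 60.2, 72.2 and 50.9 CPM in enhancer-null LSK and at 50.4, 21.7 and 59.0 CPM in wild-type LSK. The ratio of the enhancer-null to the wild-type mean of Cdkn2d in LSK was 1.40, and 1.12 without wild-type LSK 6. The other Ink4 genes were all but silent, since Cdkn2a had no count in any of the 12 libraries and Cdkn2b reached at most 0.0559 CPM, in 1 wild-type CMP library.

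**Figure D2:**
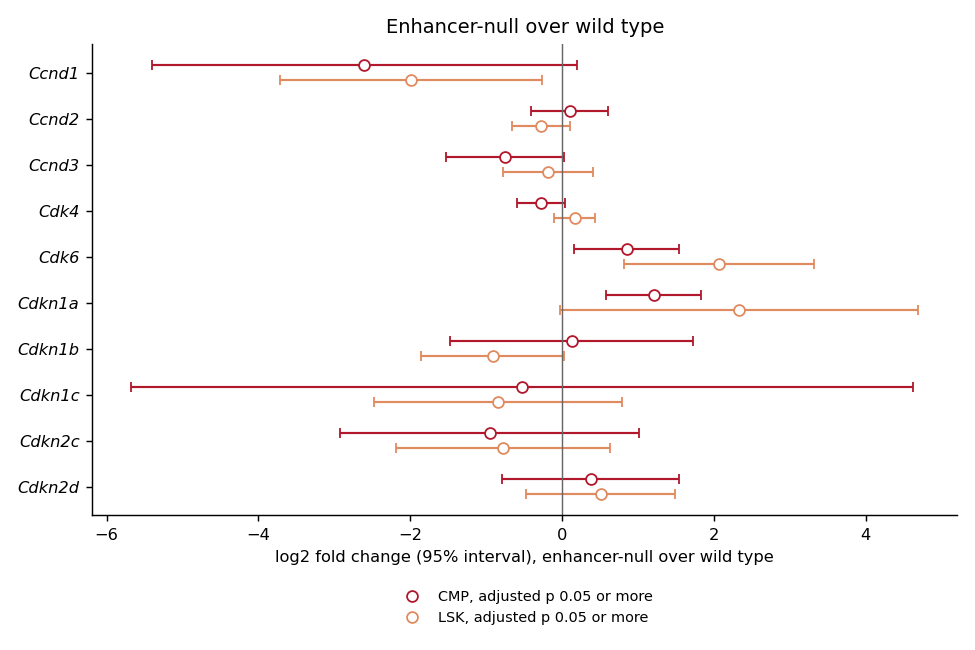
Log2 fold change of each gene, enhancer-null over wild type, with its 95% interval, in CMP (dark) and LSK (light), from edgeR's quasi-likelihood fit. No point is filled because no adjusted p was under 0.05. The intervals of Cdk6 lie above 0 in both cell types and that of Cdkn1a does so in CMP.

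Whether the genotype effect differed between the cell types was tested as an interaction, in which 0.292% of 12684 genes were called. None of the 10 members was called by edgeR or by DESeq2 (1.52% of all genes), and 1 had an unadjusted p under 0.05. That gene was Cdk4, whose log2 fold change by genotype was lower in CMP than in LSK by 0.41 (SE 0.17, edgeR quasi-likelihood Benjamini-Hochberg adjusted p = 0.597). For Cdk6 the difference was −1.19 (SE 0.63, 95% interval −2.54 to 0.17), and for Cdkn1a it was −1.10 (SE 1.1, 95% interval −3.43 to 1.24). These intervals include 0, a larger effect in LSK and, at their upper ends, a larger effect in CMP. With 1 library left out the difference ran from −1.53 to −0.77 for Cdk6 and from −1.72 to −0.54 for Cdkn1a.

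Between genes, levels were compared per kilobase of exon. Cdk4 was highest in every group, at 248.6 ± 27.02 CPM per kb in enhancer-null CMP, 301 ± 19.2 in wild-type CMP, 220.4 ± 7.85 in enhancer-null LSK and 201 ± 12.3 in wild-type LSK (SD, n = 3), and no other member overlapped it. Ccnd3 was next in 3 groups, although in enhancer-null CMP and wild-type LSK it overlapped Ccnd2, and in enhancer-null LSK it overlapped Cdkn1a, at 57.5 ± 11.4 for Ccnd3 and 57.8 ± 23.4 CPM per kb for Cdkn1a. Cdkn1a measured 41.9 ± 7.98 CPM per kb in enhancer-null CMP, where it overlapped Ccnd2, and at 18.1 ± 2.69 in wild-type CMP, where it lay below Ccnd2 in every library. Cdkn1c was last in both CMP groups, Ccnd1 in enhancer-null LSK and Cdk6 in wild-type LSK. In wild-type LSK the neighbours from Cdkn2d down to Cdk6 overlapped one another in turn, in part through wild-type LSK 6. In wild-type LSK 1 and LSK 8 alone, Ccnd3 (69.1 and 81.8 CPM per kb) lay above Ccnd2 (49.0 and 51.5). Cdkn2d (34.2 and 40.0) then lay above Cdkn1a (15.6 and 18.9), and Cdkn1a above Cdkn2c (10.4 and 12.3). Ccnd1 (5.33 and 4.24) and Cdk6 (4.47 and 3.93) still overlapped. Setting LSK 6 aside was a choice made after seeing the data. The exon lengths are those of GENCODE, which may not be the annotation the counts were made with, and the exons of Cdk6 (11.5 kb in all) are the longest of the members.

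The makeup of each family was compared library by library. Cdk6 made up 4.75% to 5.47% of the summed Cdk4 and Cdk6 level per kb in enhancer-null CMP, against 1.66% to 3.08% in wild-type CMP. It made up 4.14% to 6.91% in enhancer-null LSK, against 0.486% to 2.24% in wild-type LSK. Ccnd3 made up 44.0% to 71.7% of the D cyclins in enhancer-null CMP, against 72.7% to 73.7% in wild-type CMP, and 46.5% to 62.6% in enhancer-null LSK, against 41.6% to 59.5% in wild-type LSK. Cdkn1a made up 47.1% to 64.3% of the inhibitors in enhancer-null CMP, against 29.5% to 44.4% in wild-type CMP. It made up 40.8% to 55.4% in enhancer-null LSK, against 1.26% to 21.4% in wild-type LSK. The ratio of the 5 inhibitors to the 3 D cyclins was 0.510 to 0.801 in enhancer-null CMP, against 0.264 to 0.358 in wild-type CMP. In LSK it was 0.821 to 1.53 in enhancer-null libraries, against 0.344 to 0.642 in wild-type libraries. In each cell type every enhancer-null library had the higher ratio, the higher Cdk6 share and the higher Cdkn1a share. The inhibitor sum was 68.9 to 79.3 CPM per kb in enhancer-null CMP, against 44.2 to 60.8 in wild-type CMP. In LSK it was 83.5 to 146 in enhancer-null libraries and 41.0 to 88.3 in wild-type libraries, which overlapped. The single inhibitors did not all move the same way. Mean Cdkn1a per kb (enhancer-null first) was 41.9 against 18.1 in CMP and 57.8 against 11.7 in LSK. For Cdkn2d it was 23.2 against 17.8 and 41.4 against 29.6, with overlap in each. Cdkn1c and Cdkn2c had lower enhancer-null means in both cell types, and Cdkn1b in LSK but not CMP. The D cyclin sum was lower in every enhancer-null library than in any wild-type library of the cell type. Without wild-type LSK 6 the wild-type LSK values were 1.99% to 2.24% for Cdk6, 20.6% to 21.4% for Cdkn1a and 0.614 to 0.642 for the ratio, still below every enhancer-null LSK library. The share of Ccnd3 was then 56.0% to 59.5%, within the enhancer-null LSK range. These are descriptions of transcript levels, and the proteins were not measured.

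**Figure D3:**
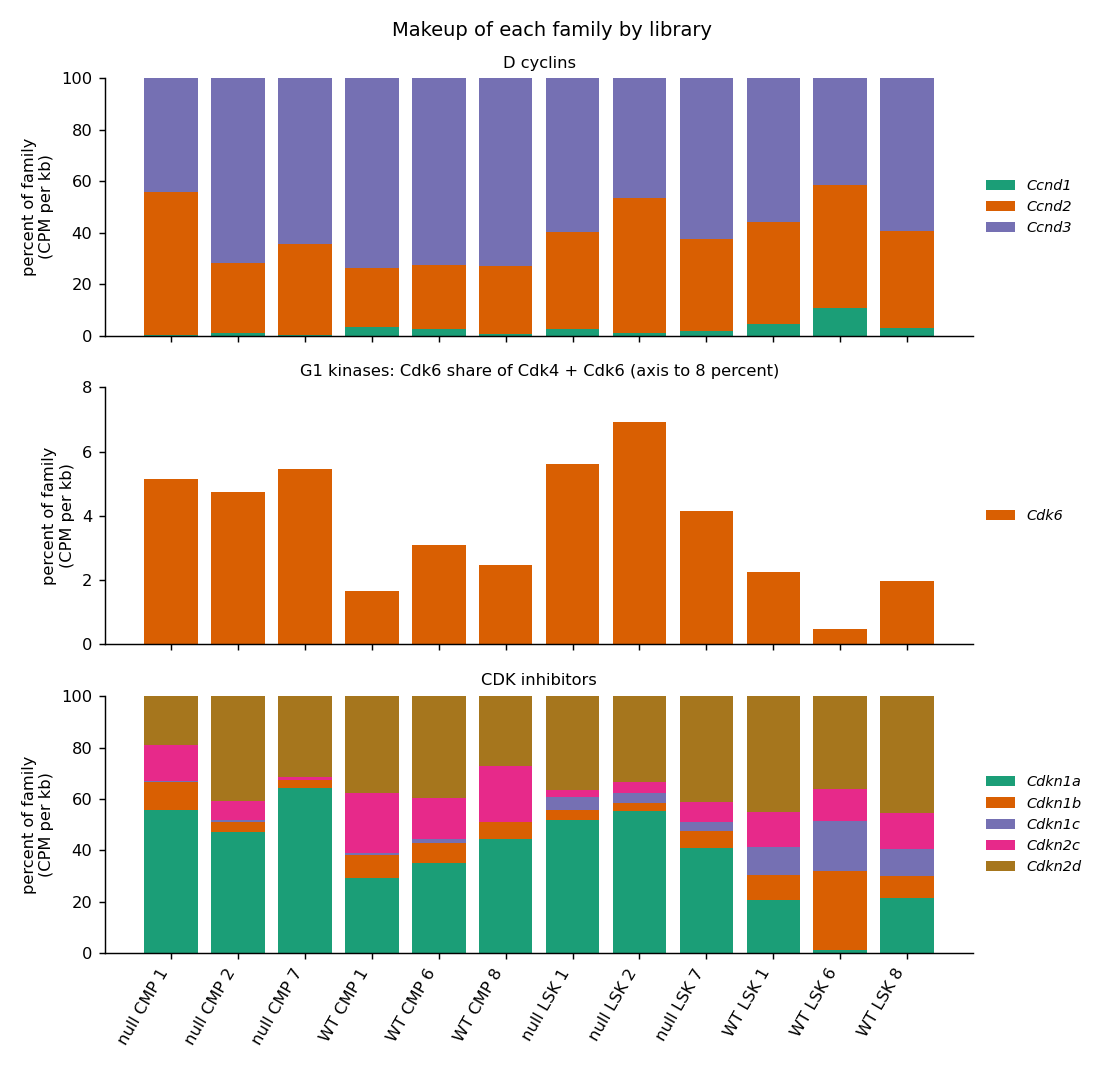
Makeup of the D cyclins (top), the Cdk6 share of Cdk4 plus Cdk6 (middle, axis to 8 percent) and the makeup of the 5 inhibitors (bottom), in percent of the family's summed CPM per kb, for each library. The Cdk6 share was above 4% in the 6 enhancer-null libraries and below 3.1% in the 6 wild-type libraries.

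From LSK to CMP, cells leave the stem and multipotent fraction for myeloid commitment. In the wild type, 2 of 10 members were called, Ccnd3 and Cdk4, both higher in CMP, against 4.2% of 12027 genes called in either direction and 2.15% called higher. Ccnd3 averaged 305 ± 7.07 CPM in wild-type CMP and 163 ± 39.7 CPM in wild-type LSK (SD, n = 3), a log2 fold change of 0.94 (SE 0.20, edgeR quasi-likelihood Benjamini-Hochberg adjusted p = 0.0490). Cdk4 averaged 618 ± 39.4 CPM in wild-type CMP and 413 ± 25.3 CPM in wild-type LSK (SD, n = 3), a log2 fold change of 0.62 (SE 0.12, edgeR quasi-likelihood Benjamini-Hochberg adjusted p = 0.0355). Both calls were lost when any of the wild-type libraries CMP 1, CMP 6, CMP 8, LSK 1 or LSK 8 was left out, and both held without LSK 6. The call of Ccnd3 was also lost with RLE factors (edgeR quasi-likelihood Benjamini-Hochberg adjusted p = 0.0539) and with all 12 libraries in the fit (adjusted p = 0.150), and that of Cdk4 with no filter on low counts (adjusted p = 0.0540). With the replicate number as a block both were lost (edgeR quasi-likelihood Benjamini-Hochberg adjusted p = 0.0938 for Ccnd3 and 0.114 for Cdk4). Over 12 alternatives Ccnd3 passed in 4 (adjusted p 0.00105 to 0.176) and Cdk4 in 5 (adjusted p 0.000286 to 0.145), with the fold change positive in each. Beside these, the summed granulocyte and monocyte progenitor markers were 5259.5 to 6489 CPM in wild-type CMP, against 579.8 to 775 CPM in wild-type LSK, and the erythroid markers 1534 to 1739 CPM in wild-type CMP, against 29.7 to 87.9 CPM in wild-type LSK, with Hba-a1 at 0 in both. Their part in the values of Ccnd3 and Cdk4 was not tested.

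The wild-type libraries of the cell types did not overlap for 6 of 10 members (33.4% of all genes tested). Ccnd3, Cdk4 and Cdk6 were higher in CMP, and Ccnd2, Cdkn1b and Cdkn1c were lower. Cdkn1c averaged 0.824 ± 0.721 CPM in wild-type CMP and 16.7 ± 1.58 CPM in wild-type LSK (SD, n = 3), a log2 fold change of −4.27 (SE 1.46, edgeR quasi-likelihood Benjamini-Hochberg adjusted p = 0.151). DESeq2, which called 13.8% of genes here, called Cdkn1c (adjusted p = 0.00407) besides Ccnd3 and Cdk4. Cdkn1b averaged 18.1 ± 5.25 CPM in wild-type CMP and 41.8 ± 13.3 CPM in wild-type LSK (SD, n = 3), a log2 fold change of −1.16 (SE 0.43, edgeR quasi-likelihood Benjamini-Hochberg adjusted p = 0.181). Cdk6 stood 1.28 higher on the log2 scale (SE 0.53, edgeR quasi-likelihood Benjamini-Hochberg adjusted p = 0.232), and the lowest CMP value was 4.58 CPM above the highest LSK value.

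In the enhancer-null libraries the same step gave no called member, as it gave none among all 11266 genes tested (0%). At an unadjusted p under 0.05 there were 0 members and 780 genes, and DESeq2 called 0 members and 205 genes (1.92%). The libraries did not overlap for 3 of 10 members (16.8% of all genes tested), Cdk4, which was higher in CMP, and Cdkn1c and Cdkn2d, which were lower. Cdk4 averaged 510.5 ± 55.5 CPM in enhancer-null CMP and 452 ± 16.1 CPM in enhancer-null LSK (SD, n = 3), a log2 fold change of 0.15 with a 95% interval of −0.15 to 0.45. Cdkn1c averaged 0.564 ± 0.879 CPM in enhancer-null CMP and 9.11 ± 2.95 CPM in enhancer-null LSK (SD, n = 3), a log2 fold change of −3.97 (SE 1.98, edgeR quasi-likelihood Benjamini-Hochberg adjusted p = 0.799). Cdkn2d averaged 34.2 ± 13.6 CPM in enhancer-null CMP and 61.1 ± 10.7 CPM in enhancer-null LSK (SD, n = 3), a log2 fold change of −0.86 (SE 0.43, edgeR quasi-likelihood Benjamini-Hochberg adjusted p = 0.80). The difference between the steps of the genotypes is the interaction given above, which no member passed.

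**Figure D4:**
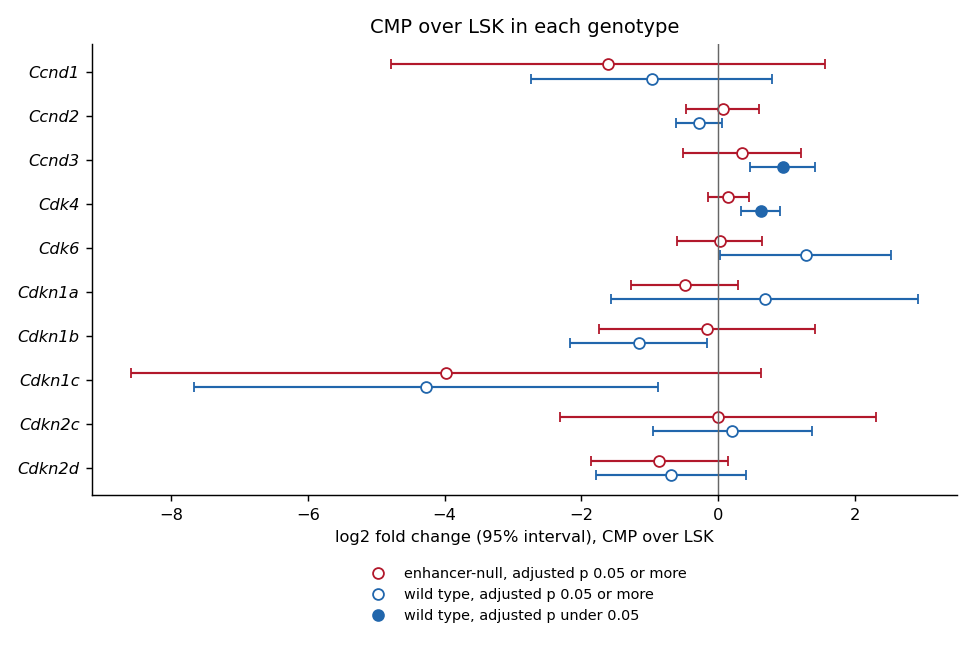
Log2 fold change of each gene, CMP over LSK, with its 95% interval, in enhancer-null and wild-type libraries, from edgeR's quasi-likelihood fit. Filled points have an adjusted p under 0.05, which only Ccnd3 and Cdk4 reached, in the wild type. Cdkn1c lies near −4 in both genotypes.

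Genes that act before and after the G1 kinases were examined as lists. In the wild-type step from LSK to CMP, 7 of 25 G2 and mitosis genes and 6 of 25 S phase genes were called higher. Of all genes tested, 2.15% were called higher. All 50 genes of these 2 lists had positive fold changes, against 49.7% of all genes tested. Their median log2 fold changes were 1.18 and 0.71, where that of all genes was −0.01. Rrm2, a subunit of ribonucleotide reductase, rose by 1.53 on the log2 scale (adjusted p = 0.00657), Mcm7 of the replicative helicase by 0.85 (adjusted p = 0.0190), the proliferation marker Mki67 by 1.09 (adjusted p = 0.0176) and Ube2c of the mitotic ubiquitin pathway by 1.43 (adjusted p = 0.0200), all by the quasi-likelihood test of edgeR, Benjamini-Hochberg adjusted. All 5 tested genes of the cyclin E, cyclin A and Cdk2 list had positive fold changes, and 3 were called higher. They were Ccna2, by 1.39 (adjusted p = 0.0137), Ccne2, by 1.60 (adjusted p = 0.0488), and Ccne1, by 5.11 (adjusted p = 0.0494), with Ccne1 named after its values were seen. Ccne1 averaged 136 ± 6.51 CPM in wild-type CMP and 3.96 ± 4.49 CPM in wild-type LSK (SD, n = 3).

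These list counts rested on the libraries used. Without wild-type LSK 6, 13 G2 and mitosis, 9 S phase and 3 cyclin E and A genes were called higher. Leaving out CMP 1, CMP 6, CMP 8, LSK 1 or LSK 8 in turn gave 0 to 3, 0 to 2 and 0 to 1. Of 13 retinoblastoma and E2F genes, 9 had positive fold changes in this step and 1 was called higher. It was E2f4, a member that acts mainly in repression, which rose by 1.09 (edgeR quasi-likelihood Benjamini-Hochberg adjusted p = 0.0231).

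By genotype in CMP, edgeR called none of the genes of these lists. Of the 25 G2 and mitosis genes, 24 had negative fold changes with a median of −0.82, and 18 did not overlap between genotypes, where 12.5% of all genes tested were lower without overlap. Of the 25 S phase genes, 23 were negative with a median of −0.63, and 13 did not overlap. At an unadjusted p under 0.05 there were 14 G2 and mitosis and 7 S phase genes (12.6% of all genes tested). DESeq2 called 6 and 2, all lower (5.57% of all genes tested in either direction). Without wild-type CMP 8 the counts at an unadjusted p under 0.05 were 9 and 3, and 11 S phase genes reached it without enhancer-null CMP 1 or without enhancer-null CMP 2. Of the 5 cyclin E, cyclin A and Cdk2 genes, 4 were negative with a median of −0.67, 2 had an unadjusted p under 0.05, and DESeq2 called none. In LSK the medians were −0.41 for G2 and mitosis and −0.15 for S phase genes, and −0.66 and −0.34 without wild-type LSK 6. Without enhancer-null LSK 1 that of the S phase genes was 0.0036. In LSK edgeR called none of these either, with 4 and 4 genes at an unadjusted p under 0.05 (7.91% of all genes tested). DESeq2 called 1 and 0 there (2.37% of all genes tested).

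**Figure D5:**
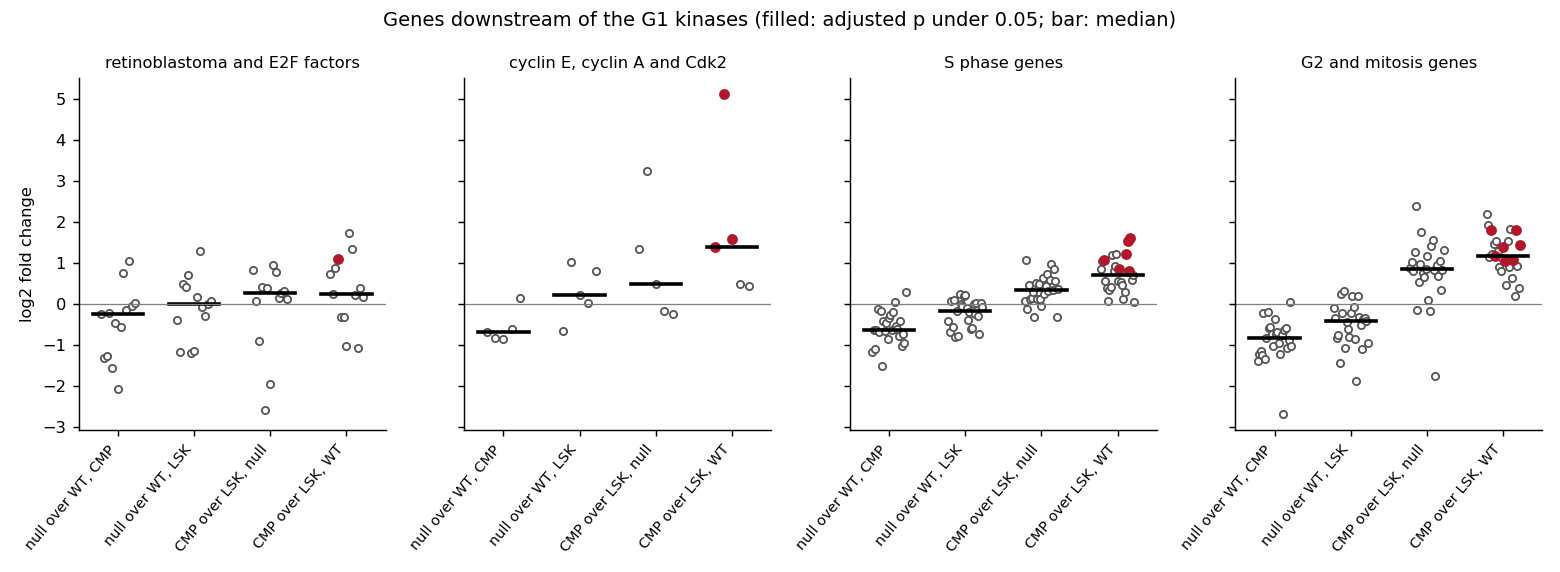
Log2 fold change of each tested gene in 4 lists downstream of the G1 kinases, in the genotype comparisons (enhancer-null over wild type) and the cell type comparisons (CMP over LSK). Bars are list medians, and filled points have an adjusted p under 0.05. The G2 and mitosis genes have a median of −0.82 by genotype in CMP and 1.18 from LSK to CMP in the wild type.

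Of the 14 other p53 targets, 13 could be tested by genotype in CMP. Of these 8 had positive fold changes, with a median of 0.71, which was 0.03 without enhancer-null CMP 7 and 0.47 without enhancer-null CMP 1. Of the 13, 4 had an unadjusted p under 0.05 (12.6% of all genes tested). By edgeR 0 were called, and by DESeq2 2, both higher (5.57% of all genes tested). In LSK the median was 0.03, 0 of 12 were called by edgeR or DESeq2, and 0 had an unadjusted p under 0.05 in edgeR. In the wild-type step from LSK to CMP, 1 of 14 was called, the stress-induced Sesn1, which fell by 1.05 on the log2 scale (edgeR quasi-likelihood Benjamini-Hochberg adjusted p = 0.0462). Among 8 regulators upstream of the inhibitors, Hes1, a Notch target that represses Cdkn1b and other genes, had the smallest p by genotype in CMP. Of the 8, 3 had an unadjusted p under 0.05 there, edgeR called 0, and DESeq2 called 1 higher and 1 lower. Hes1 averaged 30.0 ± 28.6 CPM in enhancer-null CMP and 1.35 ± 1.25 CPM in wild-type CMP (SD, n = 3), which did not pass the test (edgeR quasi-likelihood Benjamini-Hochberg adjusted p = 0.234).

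Among 12 imprinted genes near Cdkn1c or of its network, 6 could be tested in the wild-type step. The 1 called was Ndn, a growth suppressor gene, which fell, averaging 0.122 ± 0.185 CPM in wild-type CMP and 29.9 ± 6.35 CPM in wild-type LSK (SD, n = 3, edgeR quasi-likelihood Benjamini-Hochberg adjusted p = 0.0235). By genotype in LSK, 7 were tested and 6 had negative fold changes. Of the 7, 4 had an unadjusted p under 0.05 (7.91% of all genes tested). By edgeR 0 were called, and by DESeq2 3, all lower (2.37% of all genes tested). Ndn averaged 0.430 CPM in enhancer-null LSK and 29.9 CPM in wild-type LSK. Neither the CDK-activating kinase and chaperone list (4 genes) nor the list for turnover of p27 and D cyclins (9 of 10 measured) had a called gene in any of the 5 comparisons by edgeR, with 0 or 1 and 0 to 2 genes at an unadjusted p under 0.05. DESeq2 called 1 gene of the first list, in the wild-type step. Their smallest p by genotype in CMP were those of Cdk7, the activating kinase (log2 fold change 0.40, SE 0.28), and Skp1a, a subunit of the ubiquitin ligase that removes p27 (0.41, SE 0.16).

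The genes whose pattern over the 12 libraries was most like that of the 3 members with the widest range were found by the root mean square difference of centred log2(CPM + 1), among 12683 genes. Nearest to Cdkn1c were Copz2 (0.46), Trp53i11 (0.49) and Ift81 (0.54). Nearest to Cdkn1a were 0610010F05Rik (0.41), Smim3 (0.45) and Limk2 (0.46). Smim3, for example, averaged 107 CPM in enhancer-null CMP, 27.7 in wild-type CMP, 97.1 in enhancer-null LSK and 35.5 CPM in wild-type LSK. Nearest to Ccnd1 were Casc4 (0.56), Guca1a (0.59) and Gm3893 (0.62). These are descriptions over libraries that share groups and depth.

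For 7 members an exon overlapped a gene on the opposite strand in the annotation, and whether counting used the strand is not given in the sources used here, so reads there cannot be told apart with certainty. The overlaps with protein-coding genes were 818 bases of Ccnd1 with LTO1, 641 of Cdk4 with Tspan31 and 361 of Ccnd3 with Bysl. Longer than the last were 422 bases of Cdkn1c with Gm44732 and 372 of Ccnd2 with Gm43126, both antisense genes. Cdkn1b, Cdkn2c and Cdkn2d had none. Ccnd3 also has a named pseudogene, Ccnd3-ps, with which it may share reads.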

How the data were processed

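A carrier was added when total RNA of the bone marrow cells was extracted, a low-input kit amplified it, and it was read in pairs of 75 bp, according to the labels' protocols. Each library has 1 file, and the deposited values are whole-number read counts by gene symbol. The submitters' processing notes name TopHat2 2.0.4, TopHat, Bowtie, HTSeq and mm10. Which annotation, mode and strand option the counting used is not given in the sources used here. Rows without a gene name held 37.2% to 46.9% of counts and were left out. Wild-type CMP 6 listed 23456 symbols and the other 11 files 24420. The files were joined on 22779 identical symbols and 604 one-to-one older names from the RefSeq gene table (GRCm38.p6), leaving 0.075% to 0.303% of gene counts unjoined. All 10 members matched by identical symbols. No pair of replicates held identical values (chi-square per degree of freedom 43.1 to 183). A floor of 3 counts was 0.0612 to 0.487 CPM. Intervals cover the spread between libraries, and amplified reads without molecular identifiers are not independent molecules.

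Tests used edgeR 4.0.16 in R 4.3.3 (robust quasi-likelihood, TMM, default expression filter, Benjamini-Hochberg at 0.05 over all genes tested), with only the compared groups in each fit and all 4 in the interaction. Each SE was derived from the fold change and its F statistic, and intervals use that test's degrees of freedom. Alternatives were DESeq2 1.42.0, RLE factors, no filter, identical symbols only, all 12 libraries, sex, the replicate number as a block, and each library left out. The scripts were tested on simulated counts. Shares per kb use GENCODE M21 exon unions. Members and lists were chosen with earlier results of these data known. All 10 members are named. Of each list, up to 2 genes past the threshold per comparison are named, or else the gene with the smallest p by genotype in CMP, and for the 3 members with the widest range the 3 most alike genes.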

Additional observations from a re-analysis of the deposited data

How the results depend on the processing

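By genotype in CMP, where 69 genes were called, DESeq2 called 629 (64.4% of them higher, against 81.2%), no filter gave 270, all 12 libraries 232 and a sex term 31, and leaving out 1 library gave 7 to 92. In LSK, in place of 12, these gave 268, 39, 26 and 3, and 1 to 21. In the wild-type step, in place of 505 genes (51.1% higher), DESeq2 called 1609 and the replicate block 132 (36.4% higher), and leaving out 1 library gave 54 to 880. In the enhancer-null step, in place of 0, DESeq2 called 205, no filter 9 and all 12 libraries 37. For the interaction, in place of 37, DESeq2 called 186, no filter 68 and the block 7, and leaving out 1 library gave 12 to 107. Members called changed to 1 with DESeq2 in each genotype comparison. In the wild-type step the 2 became 1 with RLE factors, no filter or all 12 libraries, 0 with the replicate block, and 0 to 2 with 1 library left out. Members that did not overlap by genotype in LSK became 8 without wild-type LSK 6, a choice made after seeing the data. Same-numbered CMP and LSK libraries deviated together with correlations of −0.047 to 0.107, and not every library correlated best with its own number. Sex by Xist and Y-linked genes agreed by number within each genotype, so whether a number marks 1 animal is not settled. Directions turned for Cdkn1b by genotype in CMP with a sex term (−0.22), for Cdkn2c in the enhancer-null step with all 12 libraries (0.0187), and for Cdkn1c in the interaction with the replicate block (−0.72). With 1 library left out, log2 fold changes by genotype in CMP ran from −0.59 to 0.41 for Cdkn1b, −0.0687 to 0.29 for Ccnd2 and −3.87 to 0.0517 for Cdkn1c. In the wild-type step that of Cdkn2c ran from −0.11 to 0.47. In the enhancer-null step they ran from −0.83 to 0.13 for Cdkn1b, −0.0931 to 0.25 for Ccnd2, −0.14 to 0.27 for Cdk6 and −0.71 to 0.49 for Cdkn2c. In the interaction they ran from −0.50 to 0.22 for Cdkn2d, −3.18 to 0.94 for Cdkn1c and −0.95 to 0.35 for Cdkn2c. Over all alternatives 613 log2 fold changes of members kept their direction and their side of the threshold, and 29 turned. Another 15 lost a call and 3 gained one. All 160 values of group levels moved by less than 1 SD under RLE scaling or with a library left out. With 3 libraries in a group, leaving 1 out cannot move the mean by 1 SD, so only RLE scaling could have shown a move. The mean of Cdkn1a in wild-type LSK ran from 21.9 to 46.9 CPM with 1 library left out. The cause of these changes was not tested. Single CMP libraries held as few as 0 counts of Cdkn1c and 10 of Ccnd1.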
